A study of Mus musculus with 2 samples.

Results

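Mouse genes whose symbol begins with Ube2, or is Usp followed by a number with at most 1 suffix letter, were read for NRF1 binding at their promoters. The rule finds 87 protein-coding genes, 37 Ube2 genes and 50 Usp genes, of 21631 protein-coding genes in the RefSeq table. Usp9y lies on chromosome Y, where the peak set held 0 peaks in a line labelled female, so 86 members were analysed (37 Ube2 and 49 Usp) beside the 21268 genes whose strand was known. The assay was chromatin immunoprecipitation followed by sequencing with an antibody to NRF1, in CH12.LX, an immortalized B-cell lymphoma line of mouse strain B10.H-2aH-4bp/Wts. The 2 libraries are biological replicates of this 1 line, with no treatment named in the labels, and form a single group, so the design holds no contrast between conditions and no value below carries a test. RNA was not measured, so neither the B-cell identity of the line nor the expression of any member could be checked, and a binding site in 1 transformed line need not stand for normal B cells.

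Ubiquitin is passed to proteins along a relay. An E1 enzyme activates it, an E2 conjugating enzyme of the Ube2 family carries it on a catalytic cysteine, and an E3 ligase picks the protein that receives it. Usp proteases are the largest family of deubiquitinases, cysteine proteases that cut ubiquitin from proteins or trim chains. NRF1, nuclear respiratory factor 1, binds GC-rich promoter DNA as a dimer and is best known as an activator of nuclear genes that mitochondria need.

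A member was called occupied when a peak of the authors' optimal set had its summit within 1000 bp of the transcription start site. The authors chose this set by the irreproducible discovery rate, which compares how peaks rank between lists. A peak in it need not rank high in each replicate: 52 of the 57 occupied members were called in each replicate alone. The start site was the 5' end of the RefSeq gene on mm10. Signal is the peak caller's own value, with no unit given, and it ran from 4.71 to 703 in this set with a median of 38.0. In all 57 of 86 members were occupied (66.3%), 26 Ube2 genes (70.3%, 95% Wilson interval 54.2 to 82.5) and 31 Usp genes (63.3%, 49.3 to 75.3). Among all protein-coding genes 36.8% were occupied. The intervals cover counting error over genes only, and depth is unknown because read numbers were not given in the sources used here.

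The sequences under the strongest peaks are shown first, because they show how the members relate to the NRF1 site. The NRF1 consensus is a 10-base near-palindrome of GC-rich letters, with a pyrimidine at its sixth base, and was sought on both strands. Sequences come from the RefSeq promoter table (GRCm38.p6, the build called mm10, 250 bases before to 50 after a start site), which holds 67 of the 86 members. Each line gives 30 bases on the strand of the gene, with the 10-base site in capitals. Ube2k lies at chr5:65537259-65537288 (plus strand) and Usp37 at chr1:74505864-74505893 (minus strand), and both hold the exact consensus. The second is at the start site of Usp37 that lies 38465 bp from the 5' end of the gene. The site of Ube2k was centred 5 bp from its summit and that of Usp37 132 bp from its summit. A second site in Usp37, with 1 mismatch, was nearer, at 43 bp (chr1:74506040-74506069), and is shown on the last line.
Ube2k: tcagcgtggtGCGCATGCGCggacccggcg
Usp37: gcgcgcttacGCGCACGCGCctggactggt
Usp37, 1 mismatch: gacacgaattGCGCATGCTCaagcggttgc

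Of the 20 members with a signal of 300 or more, 11 had a summit whose 50 bp to either side could be read from the table, and in 8 of these 11 the best site there was 1 mismatch away from the consensus. Among occupied genes of any signal with such a window, 26.3% were in this class, and 40.9% of the members. The share among all genes with a signal of 300 or more is not given here. The next set shows all 9 members, Usp15 with its lower signal included, whose best site within 50 bp of the summit had 1 mismatch. They lie at chr7:13038295-13038324 (Ube2m, minus strand), chr8:81015086-81015115 (Usp38, minus), chr11:72607235-72607264 (Ube2g1, plus), chr2:167632021-167632050 (Ube2v1, minus) and chr4:155943652-155943681 (Ube2j2, plus). The others lie at chr1:171287956-171287985 (Usp21, minus), chr4:137594095-137594124 (Usp48, plus), chr1:134962418-134962447 (Ube2t, plus) and chr10:123197069-123197098 (Usp15, minus).
Ube2m: tgcaagggttGCGCAGGCGCagagcacagc
Usp38: ccgtgcctctGCGCCTGCGCgccagggaag
Usp21: gagtgtgggcGCGCAGGCGCctaagagact
Ube2v1: gcctacacctGCGCCTGCGCactagcgccc
Usp15: gggcagcaggGCGCAGGCGCgcacccgccg
Ube2g1: caggctcagcGCGCTTGCGCggagcggccc
Ube2j2: attctctagtGCGCACGCGTcagcaaccct
Ube2t: aattccggatACGCGTGCGCgcgccaattt
Usp48: tcctgggagcACGCATGCGCagactgcggc

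The first 5 of these carry 1 and the same word, GCGCAGGCGC, or its reverse complement GCGCCTGCGC. This word, singled out after the sequences were seen, occurred in 576 of the 17274 genes of the promoter table (3.33%). Of those genes 82.1% were occupied, with a median signal of 535. Ube2j2 and Ube2t shared another word, ACGCGTGCGC or GCGCACGCGT, which 0.365% of the genes held. The distance from the centre of the site to the summit was 0.5 bp at Usp38, 2.5 bp at Ube2m and between 14.5 and 26.5 bp at the other 7 members.

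Usp8, the member with the highest signal, held no site within 1 mismatch in the promoter table. On mm9 a site with 1 mismatch lay within 200 bp of its gene start. Its best site near the summit had 2 mismatches and a centre 9.5 bp from it, at chr2:126707204-126707233 (plus strand). Ube2c resembled it, with 2 mismatches at 6.5 bp from the summit (chr2:164769801-164769830, plus strand). Usp31 (541), not shown, matched less well, with 3 mismatches at 44.5 bp from its summit. A site of Usp31 with 1 mismatch lay 122 bp from the summit, inside the peak.
Usp8: tgtccttccgACGCATGCTCaggccggttc
Ube2c: cctagcagttGCGCAGGGGCagagcattcc

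Signal was higher where the best site was closer to the consensus, among the members as among all genes. The summit and 50 bp to either side lay inside the promoter table for 22 occupied members and 3143 occupied genes. The 9 members with 1 mismatch had a median signal of 566 (152 to 597), the 4 with 2 mismatches one of 263 (54.8 to 642) and the 8 with 3 mismatches one of 69.1 (32.6 to 541). For all genes the medians were 500 with 1 mismatch, 111 with 2 and 43.7 with 3. No member was in the class of the exact consensus, which held 11.9% of the genes with a median of 563. Ube2k was not counted here because its window ran past the end of the table. A match of letters is a description and does not show which protein was bound.

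**Figure D1:**
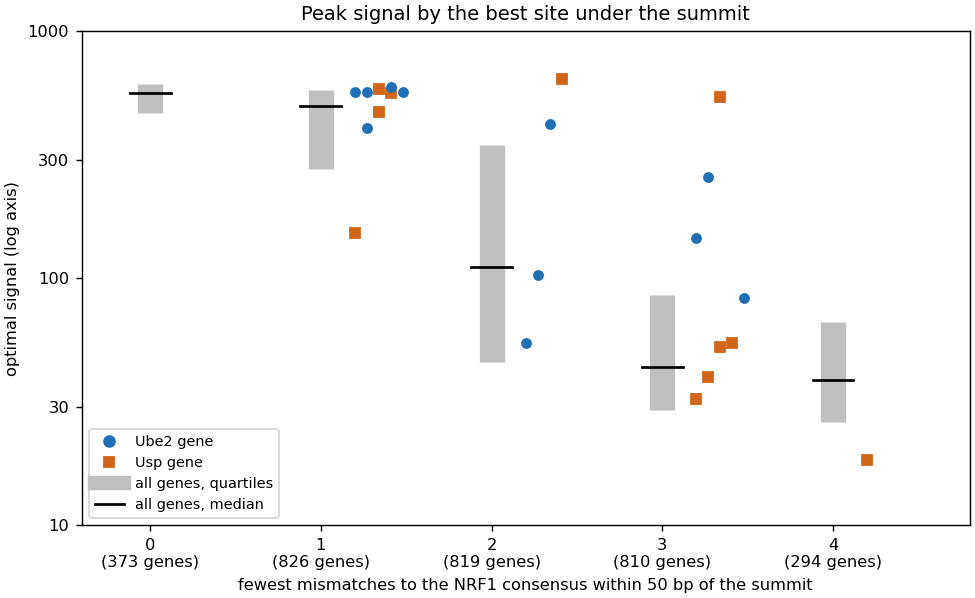
Optimal peak signal (vertical log axis) against the fewest mismatches to the NRF1 consensus within 50 bp of the summit (horizontal axis, with the number of all genes in each class). Points are the 22 members with a readable window, offset sideways for visibility, grey bars are the quartiles and black lines the medians of all genes. Of the 9 members with 1 mismatch, 8 lie between 405 and 597 and Usp15 at 152, while Usp8 (642, 2 mismatches) and Usp31 (541, 3 mismatches) lie high in their classes.

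Over the whole promoter table the members held the exact consensus about as often as other genes. It was present in 2 of 67 members (2.99%: Ube2k and Usp37) and in 3.58% of all genes. A site with at most 1 mismatch was present in 16 of 67 members (23.9%) and in 14.6% of all genes. Of the 14 members with 1 mismatch at best, 12 were occupied, where 69.6% of all such genes were, and their median signal was 552 against 438. The table can hold several start sites for a gene, so site and peak need not coincide: the site of Ube2b lay 3692 bp from its summit and outside the peak, while that of Usp4, counted as unoccupied, lay under its peak of 107 at the other start. Of the 51 members with no such site, 30 were occupied (58.8%), where 31.1% of all such genes were, with medians of 66.6 and 53.6. Genes with the exact consensus were occupied in 84% of cases. Ube2k was occupied, and Usp37 carried its peak at its other start site.

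On the mm9 genome, 1000 bp to either side of the GENCODE gene start, the exact consensus was found in 4 of 85 members (4.71%, against 5.31% of all genes): Ube2k, Ube2r2, Ube2cbp and Usp5. Usp5 is shown at chr6:124779498-124779527 (minus strand, NCBIM37), with the site beginning 15 bp before the gene start, and Ube2r2 at chr4:41082446-41082475 (plus strand), with the site beginning 320 bp before it. Ube2cbp held sites 341 and 361 bp inside the gene, and the first is shown, at chr9:86358197-86358226 (minus strand).
Usp5: cttgcctttaGCGCATGCGCacactgagtc
Ube2r2: ggaggggcgcGCGCACGCGCaccgggccgc
Ube2cbp: cgggcagtagGCGCGTGCGCgggacaatgt

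The mm9 peak set covered the sites of Ube2k, Ube2r2 and Ube2cbp and had no peak over that of Usp5, although the optimal set on mm10 had a signal of 549 with its summit 11 bp before the start of Usp5. Usp48 was another strong member (473 on mm10) without an mm9 promoter peak. Signals on the 2 builds are on different scales and were not compared.

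Members are taken below by role. Roles were assigned after the signals had been seen, so the counts by role are descriptions. Beside them stand the 70.3% of all Ube2 genes, 63.3% of all Usp genes and 36.8% of all protein-coding genes that were occupied. Among the Ube2 genes the highest signal lay at Ube2m, the E2 that joins the ubiquitin-like protein NEDD8 to cullins. Its peak (chromosome 7, 13038114 to 13038499) had a signal of 597, with 296 in replicate 1 and 306 in replicate 2, and a summit 32 bp before the start. Ube2f, the other E2 for NEDD8, reached 145 (86.8 and 59.7), Ube2z, which serves ubiquitin and FAT10, 83.5 (45.7 and 39.4), and Ube2l6, the E2 for ISG15, 59.0 (36.9 and 23.5). The 4 occupied E2 genes of this group thus spread over a wide range, and their order was the same in both replicates.

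All 5 E2 genes grouped under quality control of the endoplasmic reticulum were occupied, beside 70.3% of all Ube2 genes. Of these 5, 3 had signals from 566 to 578. Ube2k, which builds chains read by the proteasome, had 578 (294 and 287 in the replicates, chromosome 5, 65537090 to 65537419, summit 34 bp inside the gene). Ube2g1 had 570 (295 and 275, chromosome 11, 72606975 to 72607429, summit at -28 bp) and Ube2j2, anchored in the reticulum membrane, 566 (281 and 287, chromosome 4, 155943513 to 155943883, summit at -126 bp). Their relatives Ube2g2 (65.0, with 30.2 and 36.6) and Ube2j1 (54.8, with 25.8 and 27.7) lay far lower, and neither replicate overlapped the range of the stronger 3.

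E2 genes grouped under the DNA damage response were occupied at 5 of 6. This count includes Ube2v1, whose own role lies elsewhere and which had the highest signal of the group. Ube2v1, a catalytically inactive variant that pairs with Ube2n to build chains for NF-kB signalling, reached 570 (285 and 288, chromosome 2, 167631862 to 167632258, summit at -42 bp). Ube2t, the E2 of the Fanconi anaemia pathway, had 405 (200 and 206), Ube2b, a RAD6 homologue, 370 (203 and 168) and Ube2n 233 (122 and 112). Ube2v2, the partner of Ube2n in tolerance of DNA damage, had 81.6 (33.9 and 46.7). Ube2a, the second RAD6 homologue, is on chromosome X and had no peak of the optimal set.

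The 3 E2 genes of the cell cycle were all occupied. Ube2c, which starts chains for the anaphase-promoting complex, had 423 (225 and 199, chromosome 2, 164769666 to 164769943, summit at -120 bp), and Ube2s, which extends them, had 223 (115 and 111). Ube2r2, of the CDC34 type that works with cullin ligases, had 167 (101 and 69.2) with its summit 566 bp before the start.

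Of 9 E2 genes that serve many ligases, 5 were occupied. Ube2d2a led with 532 (273 and 261, chromosome 18, 35771246 to 35771561, summit at -153 bp), followed by Ube2d3 at 258 (143 and 113), Ube2d1 at 103 (55.2 and 51.8) and Ube2l3, the E2 of HECT and RBR ligases, at 70.8 (36.3 and 36.1). Ube2w, which attaches ubiquitin to the N terminus, was near the low end at 35.9 (22.7 and 12.9, chromosome 1, 16619120 to 16619463, summit 168 bp inside the gene). Ube2d2b and the 3 Ube2e genes were unoccupied. The conservative set nevertheless held peaks at Ube2e1 and Ube2e3, whose pooled relaxed signals were 17.9 and 16.6.

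The remaining E2 genes were low or unoccupied. Ube2q1 had 62.3 (39.5 and 23.6), Ube2o, an enzyme with E2 and E3 activity, 23.1 (18.2 and 16.6, chromosome 11, 116581259 to 116581602, summit 72 bp inside the gene) and Ube2q2 20.1 (11.1 and 14.2, chromosome 9, 55149920 to 55150263). Ube2h, Ube2u, Ube2ql1, Ube2dnl1 and Ube2dnl2 had no peak of the optimal set, though Ube2h was called from replicate 2 alone. Ube2cbp has the prefix but encodes a protein named for binding an E2, not an E2 itself, and it reached 499 (263 and 237, chromosome 9, 86464440 to 86464775, summit 377 bp inside the gene). Without it the Ube2 count was 25.

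Among the Usp genes, those of membranes and organelles were all occupied (6 of 6, beside 63.3% of all Usp genes). They ranged from the strongest member of all to one of the weaker ones. Usp8, which acts in endosomal sorting of receptors, had 642 (308 and 339, chromosome 2, 126707053 to 126707408, summit 27 bp inside the gene). The other 5 were low: Usp20 had 52.6 (30.2 and 20.7), Usp32 50.3 (31.3 and 19.5) and Usp33 44.5 (19.6 and 22.9). Usp19, anchored in the endoplasmic reticulum, had 32.7 (18.5 and 15.8), and Usp30, on the mitochondrial outer membrane, where it opposes removal of damaged mitochondria, had 25.5 (13.5 and 12.1).

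Usp genes of chromatin and DNA repair were occupied at 8 of 13. Usp21, a histone H2A deubiquitinase, had 563 (286 and 280, chromosome 1, 171287799 to 171288167, summit at -31 bp). Usp22, the protease of the SAGA coactivator complex, had 484 (251 and 235, chromosome 11, 61174935 to 61175290, summit at -79 bp), and Usp48 had 473 (243 and 234). Usp1, which acts on FANCD2 and PCNA, followed at 181 (115 and 66.5) and Usp28 at 113 (72.8 and 46.9). Usp16 (54.7), Usp44 (25.1) and Usp3 (18.4, with 7.56 and 14, chromosome 9, 66593120 to 66593463, summit at -144 bp) were low. Usp7, which acts on MDM2 and p53, and Usp11, Usp27x, Usp49 and Usp51 were unoccupied at the 5' end.

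Of the 3 proteases tied to the proteasome and to free chains, Usp5, which recycles unanchored chains, had 549 (285 and 268, chromosome 6, 124829342 to 124829663). Usp14, bound to the proteasome, had 25.6 (15.1 and 15.0, the latter with its summit 209 bp from the optimal summit and outside the optimal peak). Usp13, a relative of Usp5, had no peak. Among the splicing group Usp39, an inactive family member of the spliceosome, had 225 (133 and 93.5) and Usp15 had 152 (76.2 and 75.3), and Usp4 had a peak only at another start site. Usp12 and Usp46, which are activated by the cofactor WDR48, were both occupied, at 345 (199 and 151) and 24.4 (20.2 and 8.02).

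Of the other 22 Usp genes, 11 were occupied, and none of these had a signal between 49.1 and 519. The gap is one of this leftover group only. Usp genes placed under other roles lay within it, such as Usp12 (345), Usp39 (225) and Usp1 (181). Usp10, which acts on p53 and sits in a complex with the stress granule protein G3BP, had 611 (299 and 314, chromosome 8, 119910576 to 119911018, summit 432 bp inside the gene). Usp38 had 582 (286 and 297, chromosome 8, 81014945 to 81015263, summit at -88 bp), Usp31 541 (269 and 275, chromosome 7, 121707293 to 121707726, summit at -90 bp) and the nucleolar protease gene Usp36 519 (261 in each, chromosome 11, 118290263 to 118290647, summit at -192 bp). Below the gap lay Usp24 (49.1), Usp47 (39.7), Usp43 (36.6), Usp2 (34.2), Usp35 (32.6), Usp40 (16.8, with 7.17 and 9.86, chromosome 1, 88008357 to 88008700, summit 53 bp inside the gene) and Usp9x. Usp9x, a large X-linked protease gene, had the lowest signal of all occupied members, 9.24 (chromosome X, 13070647 to 13070990, summit at -163 bp), with 13.6 in replicate 2 and no overlapping peak in the relaxed list of replicate 1. That replicate 2 peak had its summit 261 bp from the optimal summit, outside the optimal peak.

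**Figure D2:**
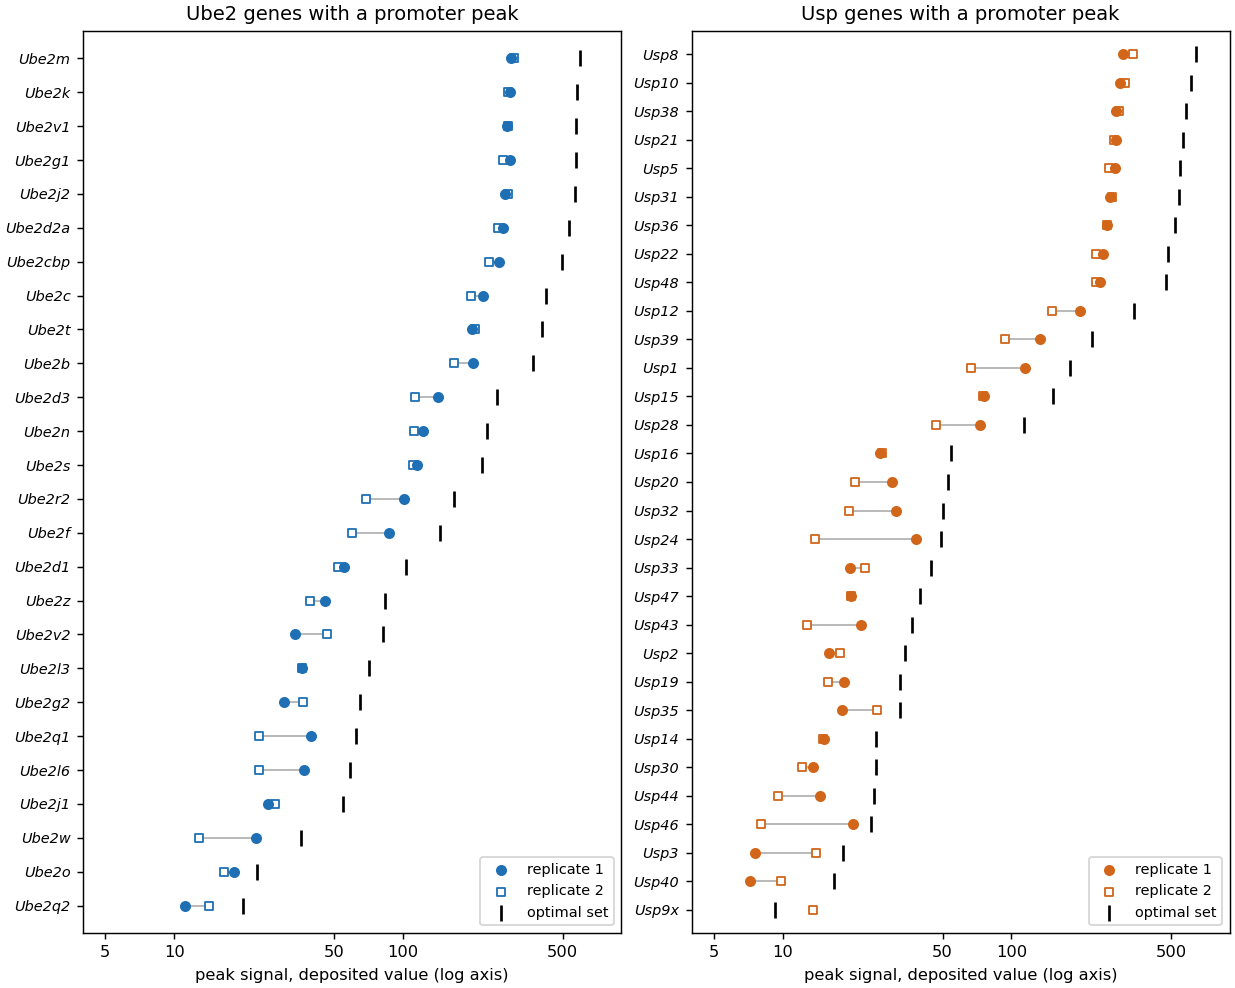
Signal of the promoter peak (horizontal log axis, deposited value without a unit) for each occupied Ube2 gene (left, 26 genes) and Usp gene (right, 31 genes), ordered by the optimal signal. Filled circles are replicate 1, open squares replicate 2, grey lines join them and black ticks mark the optimal set. The 2 replicates nearly coincide at the top and spread apart at the bottom, and Usp9x has no replicate 1 value.

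Taken by family, the median signal was 195 for occupied Ube2 genes (quartiles 66.5 and 480) and 52.6 for occupied Usp genes (32.7 and 478), beside 85.5 (35.9 and 418) over all 7829 occupied genes. The upper quartiles of the families were alike. At the low end 17 of 31 occupied Usp genes and 5 of 26 Ube2 genes had a signal under 60, where 42.2% of all occupied genes did (54.8% of Usp and 19.2% of Ube2 genes). In each family 10 genes had 300 or more. Both limits were set after the signals were seen. Over both families 35.1% reached 300, where 32% of all occupied genes did.

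The replicates lay close together at strong peaks and farther apart at weak ones. Over the 56 members with a peak in both relaxed lists, the median signal was 74.5 in replicate 1 and 55.8 in replicate 2 (mean 65.1 ± 13.3, SD, n = 2). Replicate 1 was the higher in 38 of them and replicate 2 in 18, and the ratio of replicate 1 to replicate 2 had a median of 1.05 and ran from 0.542 (Usp3) to 2.74 (Usp24). Among the 20 members with a signal of 300 or more the coefficient of variation had a median of 2.90% and a highest value of 19.3%, and among the 21 members under 60 with both values these were 22.3% and 65.5%. Across the 56 genes the replicates correlated (Spearman rho 0.957, and Pearson r 0.971 for log2 values). The points share the 2 libraries and were selected by the irreproducible discovery rate, so this describes selected peaks. The optimal signal was close to the sum of both replicate values (median ratio of that sum to it 1.01), so it is not independent of them.

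**Figure D3:**
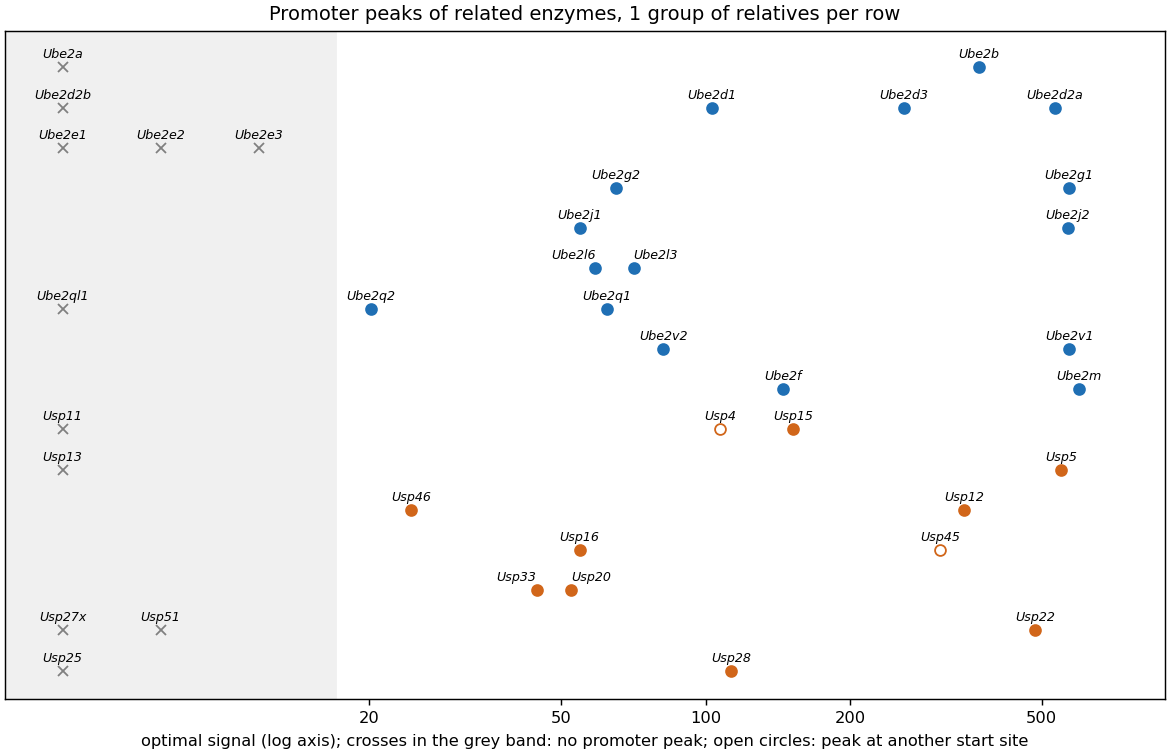
Optimal signal (horizontal log axis) of members in 16 groups of relatives, 1 group per row, Ube2 in blue and Usp in orange. Crosses in the grey band (their position has no value) are genes with no promoter peak of the optimal set. Open circles are peaks at another RefSeq start site. In 6 rows 1 gene has a signal of 484 or more while each relative has 145 or less or lies in the grey band.

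Closely related enzymes often differed in signal. The 16 groups of relatives were drawn up with the values known, so the differences are descriptions. Signals of all occupied genes were themselves widely spread (quartiles 35.9 and 418). How often unrelated genes differ as much was not tested. Ube2g1 stood at 570 and Ube2g2 at 65.0, Ube2j2 at 566 and Ube2j1 at 54.8, Ube2v1 at 570 and Ube2v2 at 81.6, and Ube2m at 597 and Ube2f at 145. In each of these pairs the lower of the 2 replicate values of the first gene exceeded the higher value of the second. The same held for Usp12 (345) and Usp46 (24.4). Usp22 was occupied and its relatives Usp27x and Usp51 were not, as with Usp5 and Usp13, Ube2b and Ube2a, and Usp28 and Usp25. Usp20 and Usp33 (52.6 and 44.5) and Ube2l3 and Ube2l6 (70.8 and 59.0) had overlapping replicate values.

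Summits lay close to the start sites. The median distance was 99 bp over the 57 occupied members (117.5 bp for Ube2 and 88 bp for Usp) and 93 bp over all occupied genes, and 29 members (50.9%) had it within 100 bp, against 52.4%. The summit was before the start in 29 members and at or after it in 28. Nearest to the limit inside was Ube2q2, at 723 bp, and nearest outside were Usp49 at -1147 bp (36.6), Usp4 at 1307 bp (107) and Usp42 at 1451 bp (209). Of the occupied members 14 had more than 1 promoter peak (24.6%, 4 Ube2 and 10 Usp genes), against 18.4% of all occupied genes.

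**Figure D4:**
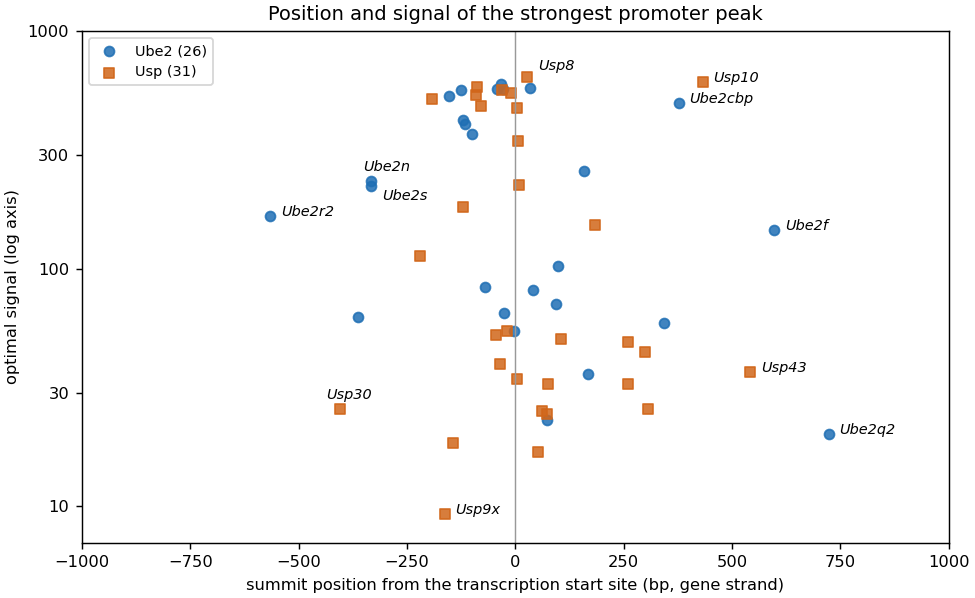
Position of the summit from the transcription start site in bp on the gene strand (horizontal axis, negative before the start) against the optimal signal (vertical log axis) for the 26 occupied Ube2 genes (circles) and 31 Usp genes (squares). Most strong peaks lie within 200 bp of the start, with Usp10 (432 bp, 611) and Ube2cbp (377 bp, 499) as strong peaks farther inside the gene.

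Few member peaks were shared with a neighbour. A second protein-coding start site lay within 1000 bp of the summit in 5 of 57 members (8.77%), against 23.8% of all occupied genes. The pairs were Ube2k with Smim14, Usp5 with Cdca3, Usp20 with BC005624, Usp32 with 1700125H20Rik and Usp35 with Kctd21. All 5 partner starts were also within 500 bp of the summit. For these members the peak cannot be assigned to 1 gene of the pair.

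Occupancy of the members varied with CpG content, as for all genes. A promoter was called CpG-rich when the 1000 bp around the mm9 gene start had GC above 50% and a CpG observed to expected ratio above 0.6. Of 62 members with a CpG-rich promoter 51 were occupied (82.3%: 24 of 28 Ube2 and 27 of 34 Usp genes), where 63.8% of all such genes were. Of 23 members without one, 5 were occupied (21.7%), where 15.1% of all such genes were. These 5 were Ube2l3, Ube2l6, Usp14, Usp44 and Usp21, and Usp21 alone among them had a strong peak (563). CpG-rich but unoccupied were Ube2a, Ube2e1, Ube2h, Ube2ql1, Usp4, Usp13, Usp25, Usp27x, Usp34, Usp42 and Usp53. CpG content was read at the mm9 gene start and occupancy at the mm10 start, which need not be the same promoter. Usp7, Usp37 and Usp45, unoccupied and not CpG-rich, had an optimal peak at another start site, as did Usp4 and Usp34 among the CpG-rich. Whether CpG content accounts for the members' share was not tested.

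On chromosome X, 1 of 8 members was occupied, Usp9x. The other 7 were Ube2a, Ube2dnl1, Ube2dnl2, Usp11, Usp26, Usp27x and Usp51. This count turns on weak peaks. Usp9x had an optimal signal of 9.24. Usp27x and Usp51, called in at least 1 replicate alone, had pooled relaxed signals of 18.6 and 16.7. Among all X-linked genes 18.8% were occupied, and among autosomal genes 37.7%, while 56 of 78 autosomal members were (71.8%). Occupied X-linked genes had a median signal of 111 and autosomal ones of 85.2. The copy number of X in this line was not measured.

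The 29 unoccupied members were of several kinds. For 15 of them the pooled relaxed list, with its 300000 peaks, had no summit within 1000 bp of the start: Ube2d2b, Ube2dnl1, Ube2dnl2, Ube2e2, Ube2ql1, Ube2u, Usp7, Usp13, Usp26, Usp29, Usp34, Usp37, Usp49, Usp53 and Usp54. The relaxed lists of single replicates held weak peaks there for Usp49 (8.13 and 4.14) and, in replicate 1 only, for Usp54 (2.78). In 5 Usp genes an optimal peak stood at another RefSeq start site. These were Usp37 (593, with 305 and 299 in the replicates), Usp45 (307, with 161 and 146, 9109 bp from the 5' end), Usp4 (107, with 63.8 and 43.3), Usp34 (101, with 70.6 and 32.1) and Usp7 (49.0, with 16.6 and 32.2). Called in at least 1 replicate alone were Ube2e3, Ube2h, Usp27x and Usp51. The mm9 set had a peak at a GENCODE start of Ube2h, Usp4, Usp7, Usp34, Usp42 and Usp45. In all 16 members were called under none of the rules tried: Ube2a, Ube2d2b, Ube2dnl1, Ube2dnl2, Ube2e2, Ube2ql1, Ube2u, Usp11, Usp13, Usp18, Usp25, Usp26, Usp29, Usp50, Usp53 and Usp54. Usp18, the protease for ISG15, had a pooled relaxed signal of 7.55.

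Under every call rule tried, the members' share was above that of all genes. In the conservative set 28 Ube2 and 28 Usp genes were occupied, 65.1% of members against 35.6% of all genes. It added Ube2e1 and Ube2e3 and lacked Usp3, Usp40 and Usp46, and it is not nested in the optimal set: 2514 of its 15936 peaks (15.8%) were not among the optimal peaks. Replicate 1 alone gave 27 and 30 genes, with 38% of all genes occupied, and replicate 2 alone 28 and 30, with 36.7%. Of the 57 occupied members 52 were called in each replicate alone. A summit within 500 bp was found for 23 and 30 genes (33.7% of all genes), and within 2000 bp for 26 and 34 (39.2%). With any RefSeq start site the counts were 26 and 36 (39.9%), and in the mm9 set with any GENCODE start 26 of 37 and 29 of 48 (35.4%). With only the 8773 stronger optimal peaks, those with a signal of at least 38.1, the families came out farther apart: 23 Ube2 genes (62.2%) and 20 Usp genes (40.8%) were occupied, against 27% of all genes.

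Other genes of the ubiquitin pathway, from lists drawn up by function, were occupied at 101 of 139 (72.7%), against the same 36.8%. All 4 ubiquitin genes were occupied, led by Ubb at 612 (300 and 315 in the replicates). Of 8 E1 genes 7 were, led by Sae1, a subunit of the SUMO E1, at 665 (320 and 346), and without Uba7, the E1 for ISG15. Of 9 genes for ubiquitin-like modifiers 5 were, led by Fau (562), and Isg15, Ubl5 and Nedd8 were among those without a peak.

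The ligases and proteases gave shares of the same order. The anaphase-promoting complex, the ligase served by Ube2c and Ube2s, had 14 of 16 genes occupied, led by its activator Fzr1 (599), with Anapc15 and Cdc27 unoccupied. HECT ligases had 20 of 26, led by Ube3a (625), RBR ligases 8 of 13, led by Rnf19b (590), and the cullin ligase core 11 of 16, led by Cul7 (524). Unoccupied among the RBR ligases were Arih1, Arih2, Rnf14, Rnf144b and Rnf217, and in the cullin core Cul4b, Cul5, Cul9, Eloc and Skp1. Deubiquitinases of other families had 23 of 35, led by Vcpip1 (617), SUMO and NEDD8 proteases 6 of 7, led by Senp3 (586) and without Senp7, and cofactors of Usp proteases 3 of 5, led by Atxn7l3 of the SAGA module (99.0) and without Wdr20 and Eny2.

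**Figure D5:**
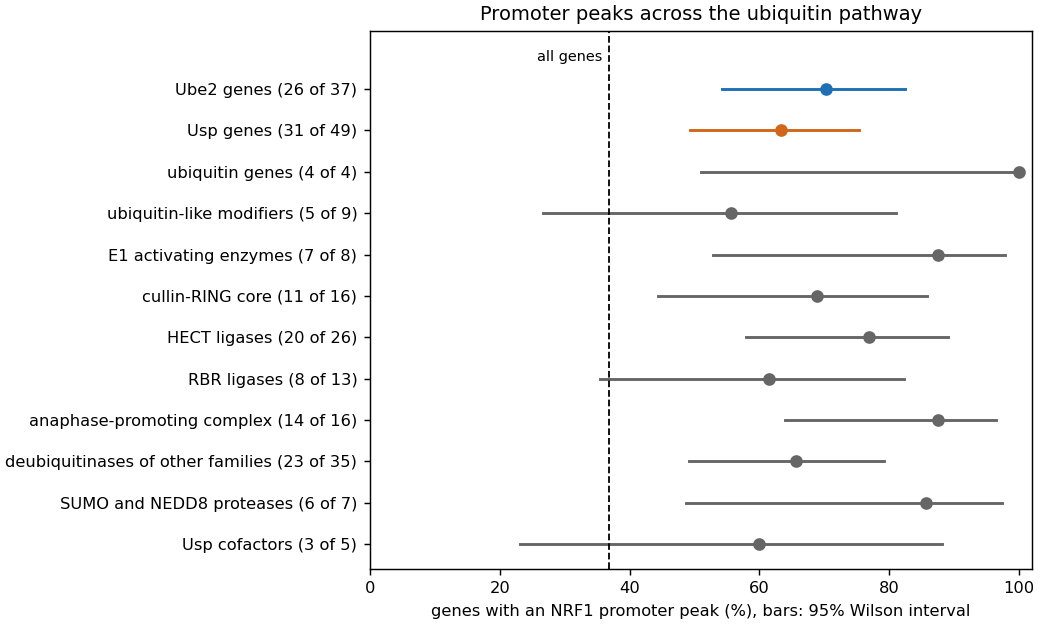
Share of genes with an NRF1 promoter peak (horizontal axis, %) in the Ube2 and Usp families and 10 lists of other pathway genes, with counts beside each name. Points are shares, bars 95% Wilson intervals over genes, and the dashed line marks all protein-coding genes at 36.8%. All points lie to the right of the line. The intervals of the ubiquitin-like modifiers (from 26.7), RBR ligases (from 35.5) and Usp cofactors (from 23.1) reach across it. The intervals cover counting error over genes only and are no test, because members and lists were chosen with earlier results of these data known.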

How the data were processed

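The files used here were the peak lists that the authors deposited. Per the deposited text files, relaxed lists were called on mm10 for each of the 2 replicates and for their pool, and conservative and optimal sets were selected from them, while an mm9 set came from both replicates. The aligner, peak caller and read numbers were not given in the sources used here. The control library was not analysed here. The deposited signal values, whose scaling is not given, served to rank and describe peaks. The deposited rank score was read only as a description, and 50 of the 57 occupied members had its highest value of 1000.

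Peaks on chromosomes 1 to 19 and X were used (17547 optimal, 11216 on mm9). The start site was the 5' end of the RefSeq gene on GRCm38.p6, with the strand taken from the RefSeq promoter table (17274 genes), GENCODE symbols (3606) or synonyms (388), and 363 genes without a strand were left out. The replicate signal was that of the strongest relaxed peak overlapping the optimal peak by at least 1 bp. The summit of that relaxed peak can lie outside the optimal peak, as in replicate 2 for Ube2o (offset -188 bp), Usp14 (209 bp) and Usp9x (261 bp). The list of 1 replicate alone was its 17547 strongest relaxed peaks. CpG content was read from NCBIM37 with GENCODE vM1, and no coordinate was converted between builds. The members and lists were chosen with earlier results of these data known, and the roles and groups of relatives were assigned after the signals had been seen. Positions and both replicates are given for the 8 strongest and 3 weakest occupied genes of each family, and of each pathway list the strongest gene is named, with unoccupied genes where 5 or fewer; values of 1 member and 1 listed gene are not reported here. Sequences were to be shown for exact consensus sites, and those with mismatches, like other named genes, were added after their values were seen. The code was tested on simulated peaks, with Python 3.11.15, numpy 2.4.6, pandas 2.3.3 and scipy 1.17.1. Alternatives were the conservative set, stronger peaks, each replicate alone, other windows, start sites and motif rules.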

Additional observations from a re-analysis of the deposited data

How the results depend on the processing

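Of the alternative values 30 stayed within 1.5 times their first value and 6 did not. Usp genes with a promoter peak numbered 31, and 20 with only the 8773 stronger optimal peaks, and the other counts ran from 28 to 36 for Usp and from 23 to 28 for Ube2. With replicate 1 or 2 left out, the counts were 27 to 28 for Ube2 and 30 for Usp. The count of members with a consensus site depended on its definition: 4 with the exact consensus within 1000 bp or 500 bp on mm9, 2 within 200 bp, 2 in the mm10 promoter table, 35 with up to 1 mismatch within 1000 bp (41.2%, against 26.1% of all genes), 20 with up to 1 mismatch within 200 bp (23.5%, against 15.6%) and 16 with up to 1 mismatch in the table. Any RefSeq start site, and 1 mismatch within 200 bp or in the table, were added after the data were seen. Counting Usp symbols with several suffix letters gave 32. The members sharing a summit with a neighbour (5) were as many within 500 bp. The mean replicate signal (65.1), counted among the 30, could not change. The relaxed peak with the nearest summit was in every case the strongest overlapping one, so that alternative tested nothing. With 2 replicates of 1 group and no read counts, weak peaks such as those of Usp9x and Usp40 rest on few values.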

Other observations

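Of the 6 Usp symbols with several suffix letters, Usp6nl had a weak promoter peak (24.4, summit at -135 bp). Its product is a GTPase-activating protein and not a protease. The 5 Usp17l genes on chromosome 7 (Usp17la, Usp17lb, Usp17lc, Usp17ld and Usp17le) had none. On chromosome Y the pooled relaxed list held 2 peaks.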
